A study of Mus musculus with 45 samples.

Results

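The genes described here are the 31 mouse semaphorins, plexins and neuropilins counted in a series of *PyMT*+ mammary tumour cell lines. They were taken by symbol, as 20 semaphorins, 9 plexins and 2 neuropilins, from a table of 54838 genes, and all 31 were found. RNA of 15 cell lines was sequenced in 3 technical repeats each, which gave 45 libraries. All lines carry polyomavirus middle T antigen, which the MMTV promoter drives in mammary epithelium, in tumours of FVB/N mice, and no line was treated. Tumours labelled as primary mammary gland tumours gave the 2 parental lines, YEJG and YEJH. The other 13 lines descend from them through transplantation into the mammary fat pad, and comprise 6 lines from fat-pad tumours and 7 lines from lungs with micrometastases, of which YEJH-M3 is labelled by its metastases and the others by whole lung. According to the study, the lung micrometastases formed after the primary tumour had been resected. YEJG gave 1 fat-pad line (YEJG-FP) and 2 lung lines (YEJG-M1 and YEJG-M2), and YEJH gave 5 of each (YEJH-FP1 to YEJH-FP5 and YEJH-M1 to YEJH-M5). The lines were grown in culture before RNA was taken, and whether host cells remained among them was not tested. The study describes some derived lines as independent and from separate mice, but not which or whether this holds for all 13, so that p-values measure the spread between these lines. The ages of the mice are not given in the sources used here.

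Semaphorins are guidance proteins that steer growing axons, vessels and migrating cells. Class 3 semaphorins are secreted, and classes 4, 5 and 6 span the membrane of the cell that makes them, while Sema7A is held on the surface by a lipid anchor. Plexins are their receptors and switch off small GTPases of the R-Ras and Rap families through a domain inside the cell. Most class 3 semaphorins cannot hold a plexin alone and need a neuropilin as co-receptor, whereas Sema3E binds plexin-D1 directly. In carcinomas, Sema3A, Sema3B and Sema3F are mostly described as restraining growth or vessel formation, and the pair of Sema4D and plexin-B1 as promoting invasion.

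Library depth ranged from 9723860 to 16943900 reads assigned to genes. Levels are given in CPM, counts scaled to the TMM-normalised library size, as the mean of the 3 libraries of a line. The prefixes of the library names in the deposited table are called run A and run B here, and the labels do not say what they stand for. Each line had libraries in both. The nearest library to each of the 45 libraries came from the same parental origin in all 45 cases and from the same line in 36. Repeat 2 of YEJH-M3 stood apart. In that library 13.3% of reads fell in no gene, against 5.52% to 8.30% in the other 44 libraries, and 15.2% did not align, against 2.69% to 6.97%. *Sema4d* was listed at 77.7 CPM in it, against 24.4 CPM and 22.1 CPM in the other repeats of the line. *Sema6a* showed the same pattern, with 23.4 CPM against 4.62 CPM and 5.97 CPM. *Plxna1*, *Plxna2* and *Sema5a* were also 1.88-fold, 1.91-fold and 2.01-fold above the mean of the other repeats, while *Nrp1*, *Sema3f* and *Sema7a* were 1.04-fold, 1.04-fold and 1.05-fold above it. Results below that turn on YEJH-M3 are also given without that library, a choice made after its values were seen.

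The members ranged from abundant to almost unread transcripts. Mean levels over the 15 lines were above 100 CPM for 6 members, from 10 to 100 CPM for 9, from 1 to 10 CPM for 7 and under 1 CPM for 9. *Plxnb2*, the plexin-B2 receptor, was the most abundant member at 657 ± 75.7 CPM (SD, n = 15 lines). Between genes, levels were compared per kilobase of the canonical transcript. On that scale *Plxnb2* reached 98.2 CPM per kb, above every other member in all 15 lines. *Sema3f* followed with 49.3 CPM per kb and *Nrp2* with 42.3 CPM per kb, and *Sema3f* was the higher of these in 12 of 15 lines. *Nrp2* stood above the next member, *Sema3c*, in all 15 lines without overlap. *Sema3c* (25.6 CPM per kb) and *Nrp1* (23.4 CPM per kb) overlapped in range, with *Sema3c* higher in 11 of 15 lines. *Sema4b*, *Plxna1*, *Plxnb1*, *Sema4d* and *Sema7a* came next, at 16.3, 9.91, 7.50, 5.28 and 5.00 CPM per kb. *Sema4d* and *Sema7a* could not be put in order, since *Sema4d* was higher in 8 of 15 lines. From *Sema3c* downwards all neighbours in this order overlapped in range. With the length of all annotated exons in place of the canonical transcript, no member moved by more than 3 places.

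Thus the lines contained mainly the secreted ligands *Sema3f* and *Sema3c*, the membrane ligand *Sema4b*, both neuropilins, and the receptors *Plxnb2*, *Plxna1* and *Plxnb1*. The receptors summed to 119 CPM per kb over 9 plexins, of which *Plxnb2* alone gave 98.2 CPM per kb. The 7 class 3 semaphorins summed to 79.9 CPM per kb, the 6 class 4 members to 26.7, the 4 class 6 members to 2.25 and the class 5 pair to 0.715. The heat map of levels by line shows these differences.

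**Figure D1:**
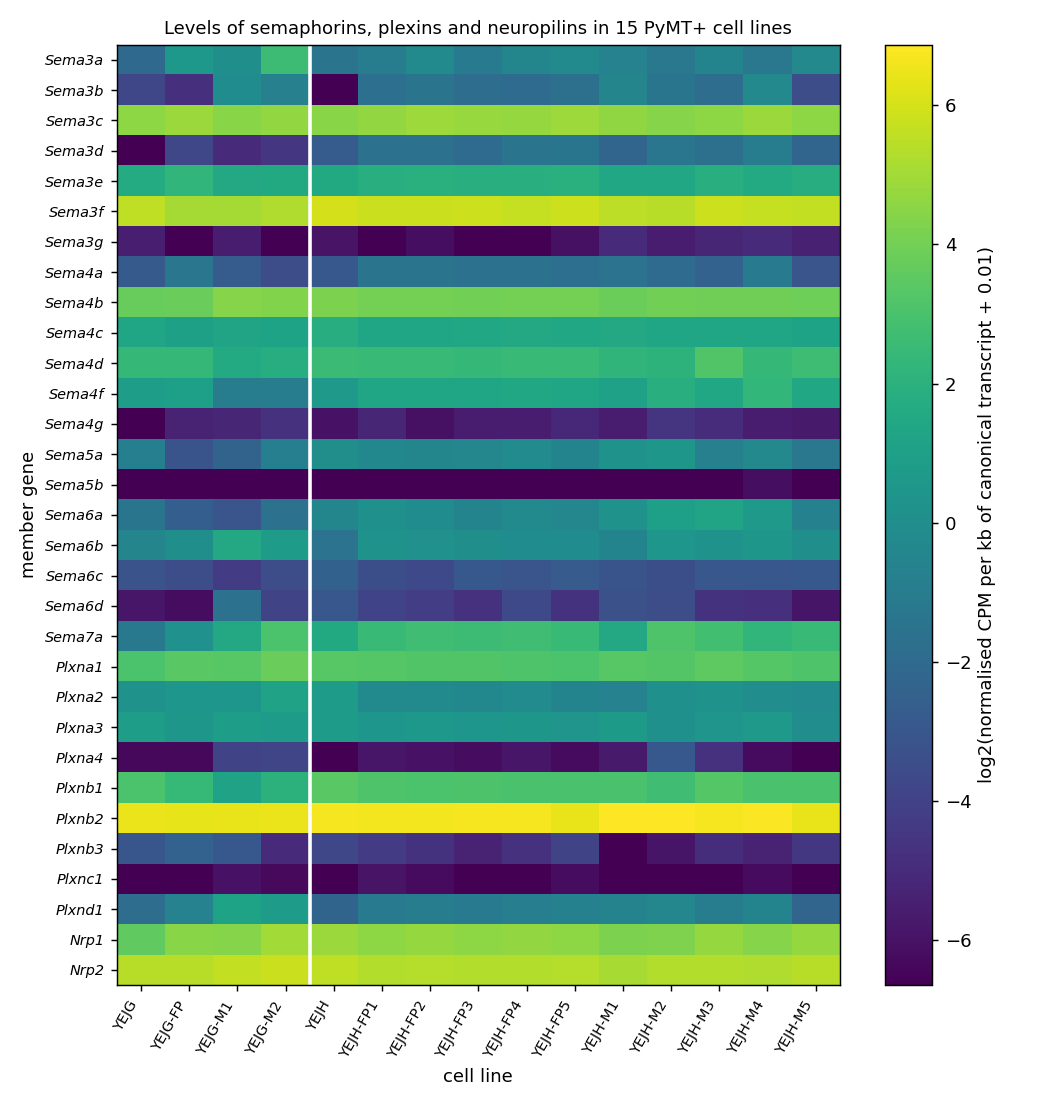
Level of each of the 31 members (rows) in the 15 cell lines (columns), as the log2 of the line mean in normalised CPM per kb of canonical transcript plus 0.01. A white line separates YEJG lines on the left from YEJH lines on the right. *Plxnb2*, *Sema3f* and *Nrp2* are high in every line, and *Sema5b* and *Plxnc1* are near 0 in every line.

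At the other end, *Sema5b* had 1 read in all 45 libraries together and *Plxnc1*, the plexin that binds Sema7A, had 8 reads. *Sema3g* had 23 reads and *Sema4g* 42 reads. *Plxna4* (174 reads) and *Plxnb3* (190 reads) were slightly above these. *Plxna4* was listed at 0.750 CPM, 0.778 CPM and 1.57 CPM in the lung lines YEJG-M1, YEJG-M2 and YEJH-M2, and at 0.368 CPM or less in the other 12 lines. That highest value, of YEJH-M3, leans on its repeat 2 (0.754 CPM against 0.157 and 0.193 CPM in the other repeats). *Plxnb3* ranged from 0 CPM in YEJH-M1 to 1.12 CPM in YEJG-FP. These 6 members did not pass the expression filter over the 13 derived lines and were not tested between sites or origins. The other 25 members were tested, and a filter on low counts favours genes that are high in at least 1 group. Of the annotated exon bases (GRCm39), 16.8% in *Sema4c*, 13.7% in *Sema4d* and 12.7% in *Sema4g* overlap another gene. The library kit does not mark the strand, and reads there may have been left uncounted in the class of ambiguous reads.

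The first comparison asked whether members differed between lines from lung and lines from the fat pad. None of the 25 tested members passed an adjusted p of 0.05 between the 7 lung and 6 fat-pad lines (edgeR's quasi-likelihood test of line totals, Benjamini-Hochberg adjustment over 15056 genes), and 0% of all genes tested passed. At an unadjusted p under 0.05 there were 2 members and 784 genes. DESeq2 called 1 member and 21 genes, and limma-voom on separate libraries with run as a covariate called 1 member and 74 genes. The median log2 fold change, lung minus fat pad, was 0.069 over the 25 members and 0.0093 over all genes tested. No member separated the 2 sites without overlap, against 0.259% of all genes. Without repeat 2 of YEJH-M3, 1 of 25 members (*Sema3e*) did, and the share of all genes was again 0.259%.

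*Sema3e*, the ligand of plexin-D1, had the smallest p among members. Its lowest, median and highest levels were 24.9, 25.7 and 32.7 CPM in fat-pad lines and 18.8, 19.97 and 25.4 CPM in lung lines. All lung lines other than YEJH-M3 lay below all fat-pad lines, and without repeat 2 the level of YEJH-M3 was 24.4 CPM, below all fat-pad lines. The log2 fold change was -0.35 (SE 0.082, adjusted p = 0.799, edgeR). It passed with DESeq2 (adjusted p = 0.0467) and with limma-voom, both with run as a covariate (adjusted p = 0.011) and with a block for the technical repeat (adjusted p = 0.0241). It did not pass in the 28 other alternatives run, in which the log2 fold change stayed below 0. *Sema3c*, another secreted ligand, ranged from 155 to 177 CPM (median 168) in fat-pad lines and from 127 to 168 CPM (median 142) in lung lines. YEJH-M4 was the only lung line inside the fat-pad range, and the log2 fold change was -0.23 (SE 0.060, adjusted p = 0.909, edgeR). *Sema3b* was the third, with 0.1002, 1.06 and 1.32 CPM (lowest, median and highest) in fat-pad lines and 0.307, 2.14 and 3.55 CPM in lung lines. Its ranges overlapped widely, with YEJG-FP lowest among the fat-pad lines and YEJH-M5 lowest among the lung lines (log2 fold change 1.09, SE 0.53, adjusted p = 0.909, edgeR).

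The second comparison was between the 3 lines descended from YEJG and the 10 descended from YEJH, with site as a term. Here 15 of 25 members passed (edgeR's quasi-likelihood test, adjusted p under 0.05), beside 42.3% of the 15056 genes tested. Of these members 6 were higher in YEJG-derived lines (20.9% of all genes were) and 9 were lower (21.4% of all genes were). The higher members were *Sema3a*, *Sema6b*, *Plxna1*, *Plxna2*, *Plxnd1* and *Nrp2*. The lower members were *Sema3d*, *Sema3f*, *Sema4c*, *Sema4d*, *Sema4f*, *Sema5a*, *Sema6a*, *Plxnb1* and *Plxnb2*. The median log2 fold change, YEJG minus YEJH, was -0.014 over the 25 members and 0.013 over all genes tested. Line means of the origins did not overlap for 8 of 25 members, against 24.8% of all genes. Without repeat 2 of YEJH-M3 these were 9 members, with *Plxna1* added, against 25.1% of all genes. Cell type markers also differed between origins. The 7 luminal epithelial markers summed to 2822 to 4233 CPM in YEJG-derived and 5684 to 7521 CPM in YEJH-derived lines, and the 6 fibroblast markers to 10.2 to 85.2 CPM and 2.34 to 5.12 CPM, both without overlap. *Cldn7*, a luminal tight junction gene, was lowest in YEJG-FP at 4.17 CPM, against 16.8 and 19.3 CPM in YEJG-M1 and YEJG-M2 and 66.3 CPM or more in all other lines. The part of these markers in the calls between origins was not tested. The plot of fold changes sets the 2 comparisons side by side.

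**Figure D2:**
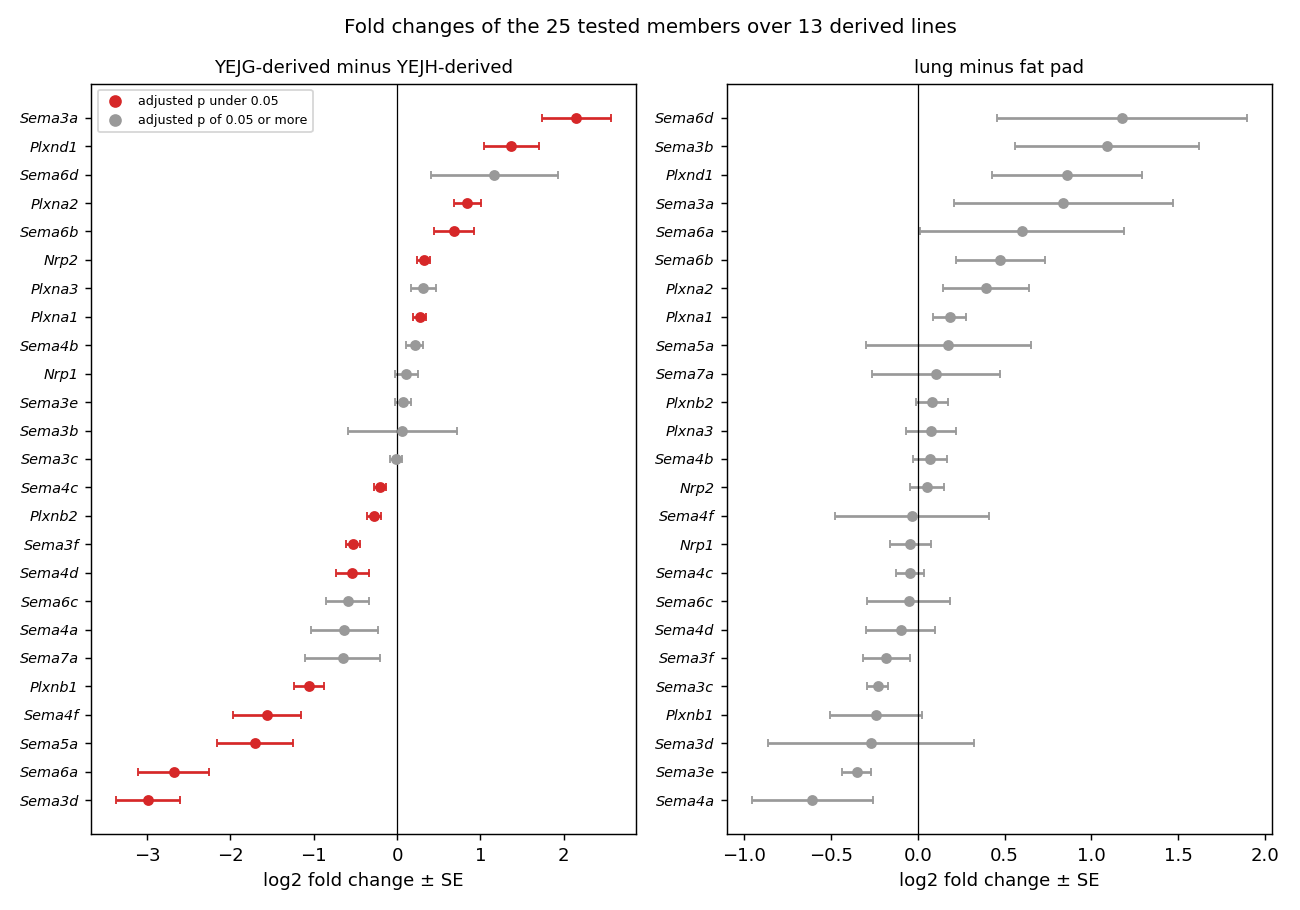
Log2 fold changes (points) with their SE (bars) of the 25 tested members over the 13 derived lines, from edgeR's quasi-likelihood test. The left panel gives YEJG-derived minus YEJH-derived lines and the right panel lung minus fat-pad lines. Red points passed an adjusted p of 0.05, which 15 members did on the left and 0 did on the right.

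Among the ligands, *Sema3a* was higher in YEJG-derived lines. Sema3A is the neuropilin-1 ligand first known for collapsing growth cones, and its gene lies at chr5:13175288-13653578 (GRCm39). It was listed at 10.8, 7.94 and 46.0 CPM in YEJG-FP, YEJG-M1 and YEJG-M2. In YEJH-derived lines its lowest, median and highest levels were 3.13, 4.83 and 6.61 CPM. The groups did not overlap, and YEJG-M2 was far above all other lines (log2 fold change 2.15, SE 0.42, adjusted p = 0.00127, edgeR). Without YEJG-M2 the log2 fold change of *Sema3a* was 0.97 (adjusted p = 0.00921, edgeR). *Sema3d* had the largest difference in the other direction. It was at 0.417, 0.137 and 0.228 CPM in YEJG-FP, YEJG-M1 and YEJG-M2, which rest on 17, 6 and 11 reads. In YEJH-derived lines it was at 1.31, 2.19 and 3.44 CPM (lowest, median and highest). These groups did not overlap either, and the log2 fold change was -2.99 (SE 0.38, adjusted p = 8.13e-05, edgeR). Over the lung lines alone *Sema3d* did not pass the expression filter and has no test.

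*Sema6a* encodes a membrane ligand of plexin-A2 and plexin-A4. It was at 0.732, 0.512 and 1.59 CPM in YEJG-FP, YEJG-M1 and YEJG-M2, and at 2.87, 4.93 and 11.3 CPM (lowest, median and highest) in YEJH-derived lines. The highest value was that of YEJH-M3, which was 5.29 CPM without its repeat 2, and the groups did not overlap in either case (log2 fold change -2.68, SE 0.43, adjusted p = 0.000354, edgeR). *Sema5a*, a membrane semaphorin with thrombospondin repeats, was at 1.15, 2.06 and 6.04 CPM in the same YEJG-derived lines. In YEJH-derived lines it was at 4.45, 8.34 and 15.3 CPM (lowest, median and highest), so that YEJG-M2 lay inside the YEJH range. The log2 fold change of *Sema5a* was -1.70 (SE 0.46, adjusted p = 0.00939, edgeR), and over the lung lines alone it did not pass (adjusted p = 0.135). *Sema3f*, the abundant neuropilin-2 ligand, was at 115, 114 and 132 CPM in the YEJG-derived lines and from 147 to 196 CPM (194 CPM without repeat 2 of YEJH-M3) in the YEJH-derived lines, without overlap (log2 fold change -0.53).

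**Figure D3:**
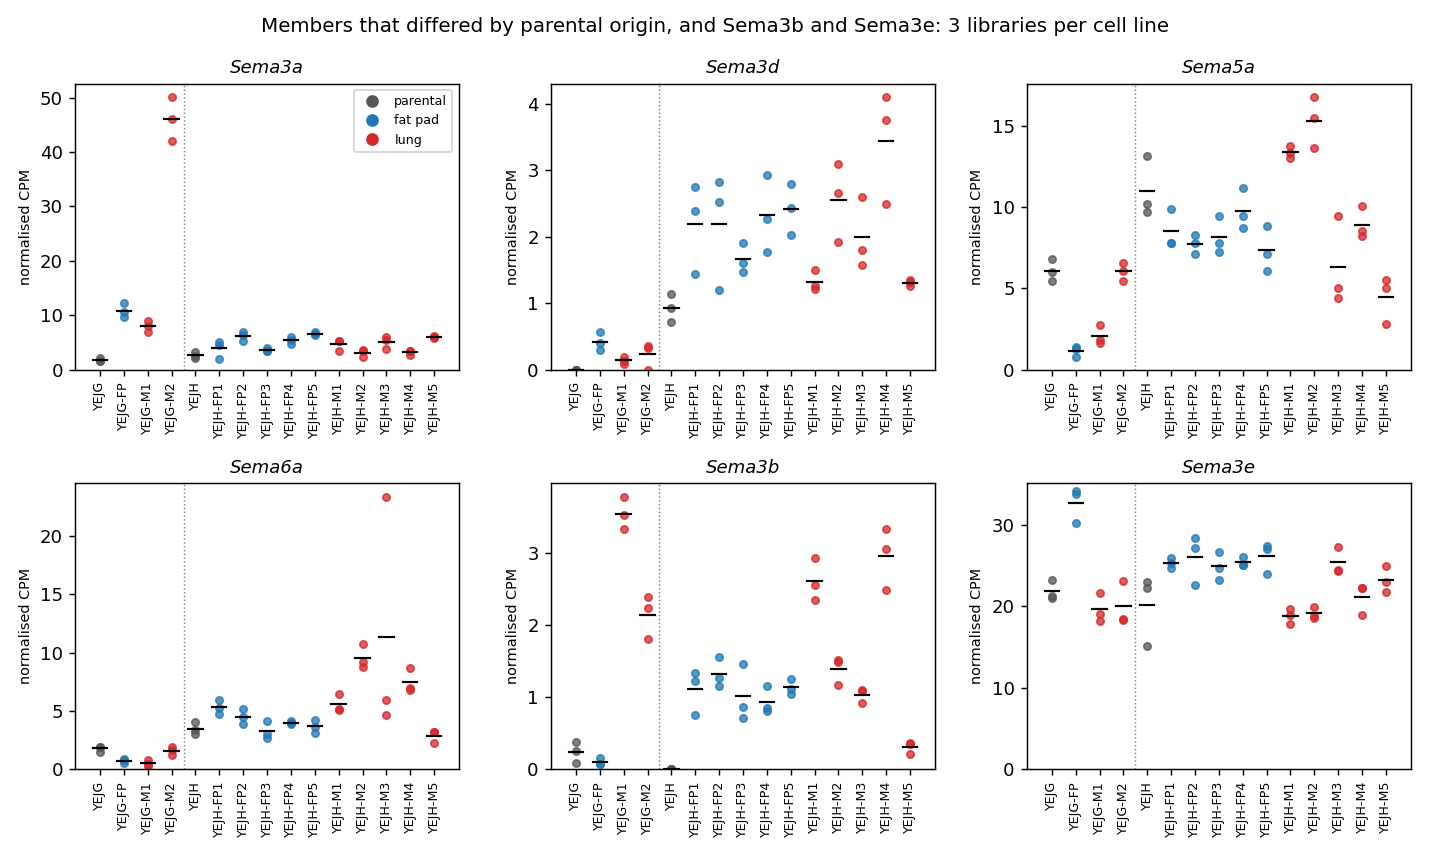
Normalised CPM of *Sema3a*, *Sema3d*, *Sema5a*, *Sema6a*, *Sema3b* and *Sema3e* in each library (points) and the mean of each line (bars), with YEJG lines left and YEJH lines right of the dotted line. *Sema3a* stands at 46.0 CPM in YEJG-M2, *Sema3d* and *Sema6a* are lower in every YEJG-derived line than in any YEJH-derived line, and 1 library of YEJH-M3 lies above its mates in *Sema6a*.

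Among the receptors, *Plxnb1* showed the largest difference towards lower levels in YEJG-derived lines. Plexin-B1 is the high-affinity receptor of Sema4D. *Plxnb1* was at 53.9, 22.2 and 42.0 CPM in YEJG-FP, YEJG-M1 and YEJG-M2, and at 67.7, 80.7 and 101 CPM (lowest, median and highest) in YEJH-derived lines, of which the highest was 88.5 CPM without repeat 2 of YEJH-M3. All 3 YEJG-derived lines were below all YEJH-derived lines (log2 fold change -1.06, SE 0.18, adjusted p = 0.000552, edgeR). *Plxnd1* moved the other way, at 4.48, 16.3 and 12.4 CPM in YEJG-FP, YEJG-M1 and YEJG-M2 against 1.48, 3.80 and 5.39 CPM in YEJH-derived lines. The lung lines of YEJG carried this difference, since YEJG-FP lay inside the YEJH range (log2 fold change 1.37, SE 0.33, adjusted p = 0.00533, edgeR). *Plxna2* was at 14.9, 15.3 and 24.3 CPM in the YEJG-derived lines, above a YEJH range of 6.88 to 13.3 CPM, or 12.2 CPM without repeat 2 of YEJH-M3 (log2 fold change 0.84). *Nrp2* was at 293, 337 and 373 CPM, above a YEJH range of 229 to 289 CPM (log2 fold change 0.32).

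Of the 15 calls, 11 were kept without run A libraries and 14 without run B libraries, and all 15 were kept without repeat 2 of YEJH-M3. Over the lung lines alone 10 were kept, without *Sema3d*, *Sema4c*, *Sema5a*, *Plxna1* and *Plxnb2*, and *Sema4b* was added. *Plxna1* also lost its call without run A libraries, without replicate 3 and without YEJG-M2, and *Plxnb2* without YEJG-M1. *Sema6b* lost its call without run A libraries, without replicate 3 and without each of YEJG-M1, YEJH-M3 and YEJH-M5. Without YEJG-M1 11 were kept and without YEJG-M2 11 were kept, and *Sema4f* (log2 fold change -1.56, SE 0.41, adjusted p = 0.0084) lost its call in both cases (adjusted p = 0.0548 and 0.0537, edgeR), while it was -2.67 without YEJG-FP. *Sema4c* and *Sema4d* lost their calls in most of the fits that left out 1 line.

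The third comparison asked whether the difference between lung and fat-pad lines was itself different between origins. It passed for 3 of 25 members (edgeR's quasi-likelihood test of the interaction, adjusted p under 0.05), beside 15.5% of all genes tested. The difference was more positive in YEJG for *Sema4b* and *Sema7a* (7.61% of all genes) and more negative for *Sema4f* (7.86% of all genes). The median interaction was 0.24 on the log2 scale over the 25 members and -0.029 over all genes tested. YEJG has 1 fat-pad line, so that YEJG-FP enters every one of these values and was assumed to vary like the other lines.

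*Sema4f* encodes a membrane semaphorin known from the postsynaptic density of neurons. In YEJG lines it was at 10.6 CPM in YEJG-FP and at 2.61 and 2.65 CPM in YEJG-M1 and YEJG-M2. In YEJH fat-pad lines 1 to 5 it was at 13.3, 12.8, 12.96, 14.6 and 13.5 CPM, and in YEJH lung lines 1 to 5 at 10.97, 18.4, 14.2, 26.2 and 14.2 CPM. Both YEJG lung lines were thus below every other line of either origin, and YEJH-M4 was the highest line. The interaction was -2.31 on the log2 scale (SE 0.42, adjusted p = 0.00358, edgeR) and it passed in all 24 alternatives run.

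*Sema4b*, the main membrane ligand in these lines, was at 52.1 CPM in YEJG-FP and at 82.4 and 74.6 CPM in YEJG-M1 and YEJG-M2. In YEJH fat-pad lines it was at 62.0, 62.1, 60.3, 62.2 and 63.9 CPM, and in YEJH lung lines at 55.2, 60.9, 58.2, 58.8 and 55.8 CPM. The YEJG lung lines were above all other lines, and 4 of 5 YEJH lung lines were below all YEJH fat-pad lines. The interaction was 0.71 (SE 0.088, adjusted p = 0.000455, edgeR), and it also passed in all 24 alternatives run.

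*Sema7a*, the lipid-anchored semaphorin that binds plexin-C1 and integrins, was at 3.83 CPM in YEJG-FP and at 9.58 and 26.9 CPM in YEJG-M1 and YEJG-M2. In YEJH fat-pad lines it was at 19.02, 21.8, 20.4, 21.9 and 18.4 CPM, and in YEJH lung lines at 9.44, 28.9, 23.1, 15.9 and 18.2 CPM. The YEJH lung lines lay on both sides of the narrow YEJH fat-pad range. The interaction was 2.36 (SE 0.72, adjusted p = 0.0441, edgeR). It was lost without YEJG-M2 (1.44 on the log2 scale, adjusted p = 0.144), without any 1 of the 5 YEJH fat-pad lines, YEJH-M4 or YEJH-M5 (adjusted p from 0.0546 to 0.0682), without replicate 1 (adjusted p = 0.0553) and in run A (adjusted p = 0.0786). The count of members called rose to 6 without YEJG-M2, to 6 without YEJH-M1 and to 5 without YEJH-M5. It was 5 without repeat 2 of YEJH-M3, where *Nrp2* and *Sema3b* were added.

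The plot of 6 members by library shows the YEJG lung lines beside the others. Compared with all 13 other lines, parental lines included, the 2 YEJG lung lines were higher without overlap for *Sema4b*, *Sema6b*, *Plxnd1* and *Nrp2* and lower for *Sema4d*, *Sema4f* and *Plxnb1*. These 7 of 25 members stand beside 30.1% of all genes tested. Against the 5 YEJH lung lines alone, 14 of 25 members did not overlap, beside 49.0% of all genes. Without repeat 2 of YEJH-M3 these were 15 members, with *Plxna1* added, beside 49.9% of all genes. The plexin-D1 gene (chr6:115931772-115972286) and the plexin-B1 gene (chr9:108923419-108950427, both GRCm39) are receptor genes that differed in opposite directions. *Plxnd1* was 8.27-fold and 6.27-fold above the parental YEJG level in YEJG-M1 and YEJG-M2, while *Plxnb1* was at 0.268 and 0.509 of it. *Sema4f* was lower still, at 0.258 and 0.262 of the parental level.

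**Figure D4:**
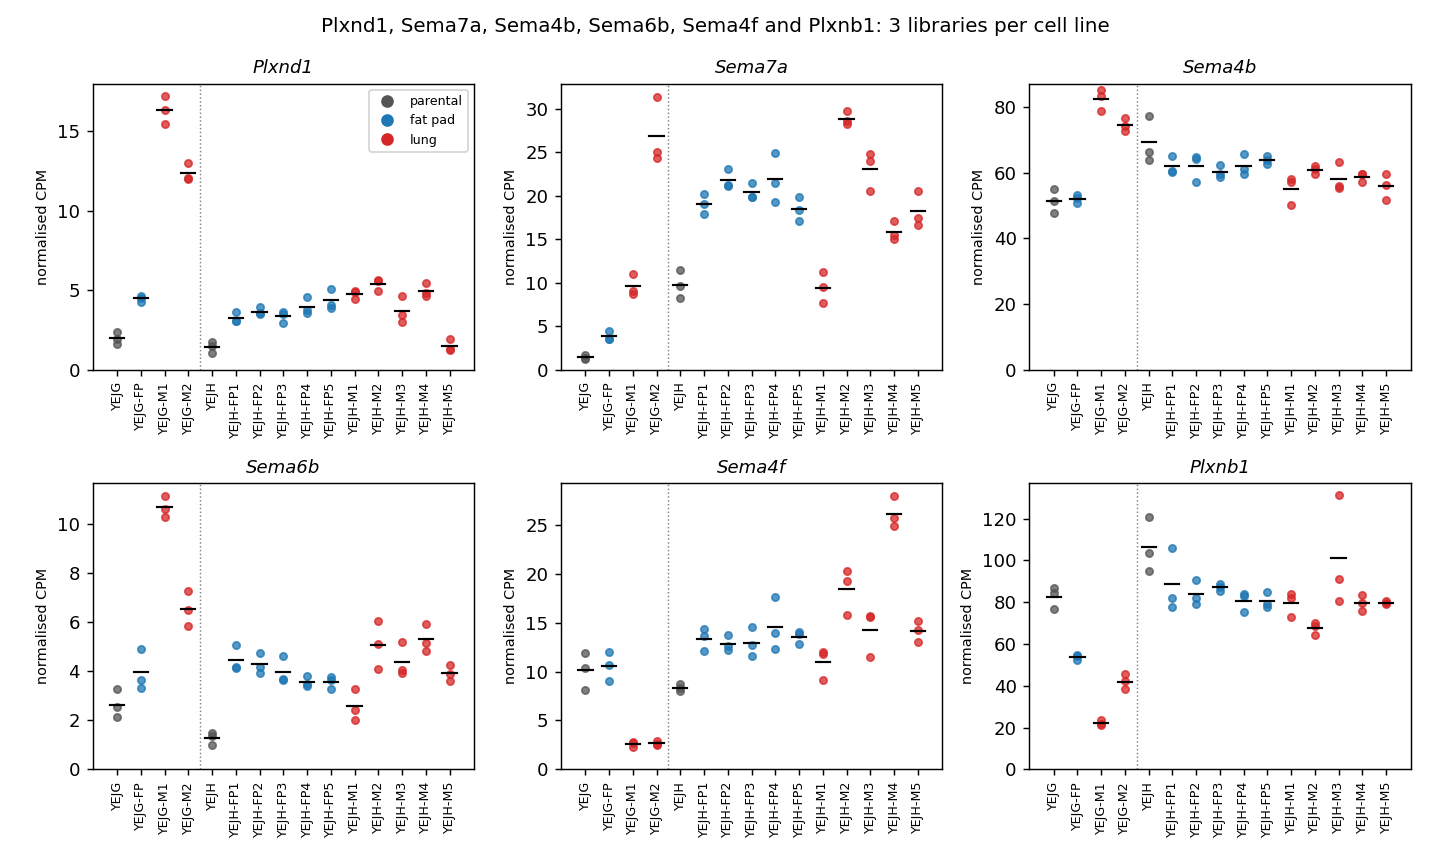
Normalised CPM of *Plxnd1*, *Sema7a*, *Sema4b*, *Sema6b*, *Sema4f* and *Plxnb1* in each library (points, coloured by site) and the mean of each line (bars), with YEJG lines left and YEJH lines right of the dotted line. The 2 YEJG lung lines lie above all other lines in *Plxnd1*, *Sema4b* and *Sema6b* and below them in *Sema4f* and *Plxnb1*.

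The promoters of 4 members described above are printed so that their composition can be compared, namely *Plxnd1*, higher in the YEJG lung lines than in all others, *Sema4f* and *Plxnb1*, lower there, and *Sema7a*, which passed the interaction test but overlapped with other lines. They are the 250 bases upstream of the RefSeq transcript start (GRCm38.p6), written 5′ to 3′ on the strand of the gene, at chr6:115995006-115995255 (minus strand) for *Plxnd1*, chr9:57939862-57940111 (plus) for *Sema7a*, chr6:82939770-82940019 (minus) for *Sema4f* and chr9:109095186-109095435 (plus) for *Plxnb1*. RefSeq promoters were matched for 26 of 31 members, with 37 entries, and not for *Sema3b*, *Sema3f*, *Sema6a*, *Plxna1* and *Plxna4*. Capitals mark matches, on either strand, to the GC box GGGCGG, the E-box CAGGTG, the CCAAT box CCAAT and the AP-1 site TGANTCA.
Plxnd1: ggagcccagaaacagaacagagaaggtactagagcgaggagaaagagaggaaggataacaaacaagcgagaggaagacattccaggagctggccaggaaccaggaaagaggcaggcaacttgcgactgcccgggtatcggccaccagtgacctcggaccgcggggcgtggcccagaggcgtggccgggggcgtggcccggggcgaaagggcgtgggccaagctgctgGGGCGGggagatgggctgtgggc
Sema7a: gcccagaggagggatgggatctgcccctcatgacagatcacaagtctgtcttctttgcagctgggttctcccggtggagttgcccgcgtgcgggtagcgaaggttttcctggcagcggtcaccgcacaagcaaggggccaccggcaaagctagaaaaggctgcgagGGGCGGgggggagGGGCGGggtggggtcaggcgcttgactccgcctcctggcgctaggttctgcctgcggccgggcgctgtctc
Sema4f: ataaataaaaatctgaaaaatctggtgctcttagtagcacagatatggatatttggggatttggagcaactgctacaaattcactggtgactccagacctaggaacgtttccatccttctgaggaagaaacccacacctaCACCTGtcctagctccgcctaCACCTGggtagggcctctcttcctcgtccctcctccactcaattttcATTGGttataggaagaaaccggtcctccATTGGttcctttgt
Plxnb1: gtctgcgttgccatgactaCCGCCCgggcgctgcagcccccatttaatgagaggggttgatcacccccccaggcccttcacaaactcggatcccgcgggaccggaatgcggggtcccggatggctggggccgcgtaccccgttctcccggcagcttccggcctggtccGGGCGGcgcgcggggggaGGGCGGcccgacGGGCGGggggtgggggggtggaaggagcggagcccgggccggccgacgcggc

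The promoter of *Plxnd1* held 1 GC box, that of *Sema7a* 2 and that of *Plxnb1* 4, and none of these 3 held a match to the other motifs. The *Sema4f* promoter had no GC box, but 2 E-boxes and 2 CCAAT boxes, all on the opposite strand, the E-boxes starting 110 and 89 bases upstream of the start. It was also the poorest in G and C of the 4, at 46.0% against 64.8% for *Plxnd1*, 66.4% for *Sema7a* and 75.2% for *Plxnb1*, and no 2 motifs overlapped in any of them. Over all 32851 promoters in the table, 32.7% held the GC box, 17.2% the E-box, 33.8% the CCAAT box and 6.75% the AP-1 site in the same 250 bases, and the median G and C content was 52.4%. Among the 37 promoters of members the GC box was in 27, the E-box in 5, the CCAAT box in 7 and the AP-1 site in 3, with a median G and C content of 64.0%. These matches describe letters in the window and do not show that a factor binds there.

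Cell type markers, which differed between origins as given above, also moved with the YEJG lung lines. The 6 fibroblast markers summed to 72.2 CPM in YEJG-M1 and 85.2 CPM in YEJG-M2, and to between 1.95 and 10.2 CPM in the other 13 lines. Only *Pdgfrb* and *Pdgfra* among them had a mean above 1 CPM, *Dcn* was at most 0.211 CPM and *Lum* was at 0 in all libraries. *Col1a1* was at 3.95 and 1.12 CPM in YEJG-M1 and YEJG-M2 and at most 0.403 CPM elsewhere, and *Col3a1* at 5.89 and 2.02 CPM and at most 0.536 CPM elsewhere. *Pdgfra* was at 42.0 and 8.98 CPM, and *Pdgfrb* at 20.2 and 73.0 CPM, in YEJG-M1 and YEJG-M2. The 7 luminal epithelial markers, led by *Krt8*, were all above 1 CPM on average. They summed to 3146 and 2822 CPM in YEJG-M1 and YEJG-M2 and to 4233 CPM or more in every other line. The 5 basal markers, led by *Krt14*, summed to 149 and 137 CPM there and to 209 CPM or more elsewhere. *Krt14* made up nearly all of this sum, while *Acta2* of the same list was at 1.40 and 6.45 CPM in YEJG-M1 and YEJG-M2 and at most 0.175 CPM elsewhere. Lung epithelial markers summed to at most 0.434 CPM (*Sftpc*, *Sftpb*, *Sftpa1* and *Nkx2-1* at 0 in all libraries), endothelial markers to at most 0.795 CPM (*Emcn* and *Cldn5* at 0), and leukocyte markers to between 2.82 and 9.54 CPM (*Cd3e* at 0). The part of the marker changes in the differences of members was not tested, and in bulk RNA fewer cells with a transcript and less transcript per cell cannot be told apart.

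The fourth comparison set the 13 derived lines against the 2 parental lines, with origin as a term. It passed for 2 of 27 tested members, *Sema6b* and *Plxnd1*, beside 7.77% of 16361 genes tested. Both were higher in derived lines, as were 3.55% of all genes, and 4.23% of all genes were lower. The median log2 fold change, derived minus parental, was -0.016 over the 27 members and 0.0061 over all genes tested. The 5 basal markers, nearly all *Krt14*, summed to 744 CPM in YEJH and 1368 CPM in YEJG. In derived lines they summed to between 137 and 496 CPM, and their part in these calls was not tested. *Sema6b*, a membrane ligand of A-type plexins, was at 2.64 CPM in YEJG and 1.28 CPM in YEJH, and at 2.56, 4.27 and 10.7 CPM (lowest, median and highest) in derived lines. All 13 derived lines were above their own parental line, although YEJH-M1 was just below YEJG (log2 fold change 1.54, SE 0.33, adjusted p = 0.0135, edgeR). *Plxnd1* was at 1.97 CPM in YEJG and 1.40 CPM in YEJH, and at 1.48, 4.35 and 16.3 CPM in derived lines. All 13 were again above their own parental line, with YEJH-M5 at 1.48 CPM within the technical spread of YEJH (log2 fold change 1.94, SE 0.49, adjusted p = 0.0288, edgeR).

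With 1 parental line per origin, these calls rest on single lines. In fits that keep 1 parental line, the derived lines alone give the spread. Without YEJG 0 members passed in edgeR (*Sema6b* adjusted p = 0.136 and *Plxnd1* adjusted p = 0.401), and without YEJH 6 passed, of which *Plxnd1* was kept and *Sema6b* was not (adjusted p = 0.0642). Over YEJH lines alone 2 members passed, with *Sema6b* kept (adjusted p = 0.0232), *Plxnd1* lost (adjusted p = 0.152) and *Plxna2* added. The count was 5 without YEJG-FP, 4 without YEJG-M2, 5 without replicate 3 and 4 without repeat 2 of YEJH-M3, where *Sema3f* and *Plxnb1* were added, and DESeq2 called 9.

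In all, 4 of 27 members were above their own parental line in all 13 derived lines, as were 9.13% of all genes tested, and 4 were below it in all 13, as were 7.82%. These ratios share 2 parental lines and are not independent of each other. Of these 8 members, *Sema6b* and *Plxnd1* passed the test and the others did not. *Sema3a* was above the parental level in all 13 derived lines and was the only 1 of the 25 members for which derived and parental lines did not overlap, against 8.36% of all genes (log2 fold change 1.76, SE 0.68, adjusted p = 0.127, edgeR). *Sema3d* was also above it in all 13, with 0 reads in YEJG, which allows a level of up to 0.0796 CPM. *Sema3b* had 0 reads in YEJH, which allows up to 0.0735 CPM, and was at 0.307 to 2.96 CPM in the lines derived from it. In YEJG *Sema3b* was at 0.235 CPM (technical SD 0.146). Of the lines derived from YEJG, YEJG-M1 at 3.55 CPM and YEJG-M2 at 2.14 CPM lay above it. YEJG-FP, at 0.1002 CPM, was below it but within that SD, and close to the floors given here. *Sema3f*, *Sema4c*, *Sema6c* and *Plxnb1* were below their parental line in all 13 derived lines, with adjusted p of 0.0502, 0.0969, 0.151 and 0.0559 (edgeR).

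The parental lines themselves were compared by value only, since each is 1 line, and SDs here cover technical repeats. *Sema7a* was at 1.42 ± 0.256 CPM (SD, n = 3 libraries) in YEJG and 9.74 ± 1.64 CPM in YEJH, 6.85-fold higher in YEJH. *Nrp1*, the co-receptor of Sema3A, was at 60.01 ± 2.45 CPM in YEJG and 147 ± 16.9 CPM in YEJH, 2.44-fold higher in YEJH. *Sema6b* was 2.06-fold higher in YEJG. The 3 libraries of the parental lines did not overlap for 17 of 25 members, against 31.7% of all genes, and 15 of the 17 were lower in YEJG, as were 55.6% of the genes without overlap. The derived lines did not keep all of these differences. *Nrp1* was at 112, 110.2 and 164 CPM in YEJG-FP, YEJG-M1 and YEJG-M2, within or above the YEJH-derived range of 93.0 to 137 CPM (to 136 CPM without repeat 2 of YEJH-M3). *Plxna2*, lower in parental YEJG (13.6 CPM against 18.8 CPM), was higher in YEJG-derived than in YEJH-derived lines.

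Members also differed in how much they varied among lines of one origin and site. The SD of log2(CPM + 0.5) was larger over the 5 YEJH lung lines than over the 5 YEJH fat-pad lines for 24 of 25 members, and for 79.0% of all genes tested. The median SD of members was 0.083 in fat-pad lines and 0.35 in lung lines, against 0.080 and 0.14 over all genes. Without repeat 2 of YEJH-M3 the count was again 24 of 25, the share of all genes 74.8%, and the median SDs in lung lines 0.29 for members and 0.13 for all genes. *Sema3b* varied most among YEJH lung lines, at 2.61, 1.39, 1.04, 2.96 and 0.307 CPM in YEJH-M1 to YEJH-M5, and from 0.936 to 1.32 CPM in the fat-pad lines. *Sema5a* was at 13.4, 15.3, 6.30, 8.94 and 4.45 CPM in the lung lines and from 7.36 to 9.79 CPM in the fat-pad lines. The value of YEJH-M3 leans on its repeat 2, which was at 9.46 CPM against 5.01 and 4.43 CPM in the other repeats. *Plxnd1* was at 4.75, 5.39, 3.66, 4.94 and 1.48 CPM in the lung lines and from 3.23 to 4.35 CPM in the fat-pad lines. YEJH-M5 was the lowest YEJH lung line in all 3 of these genes. *Sema6c* was the exception, with a larger SD in fat-pad lines at a level under 1 CPM.

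**Figure D5:**
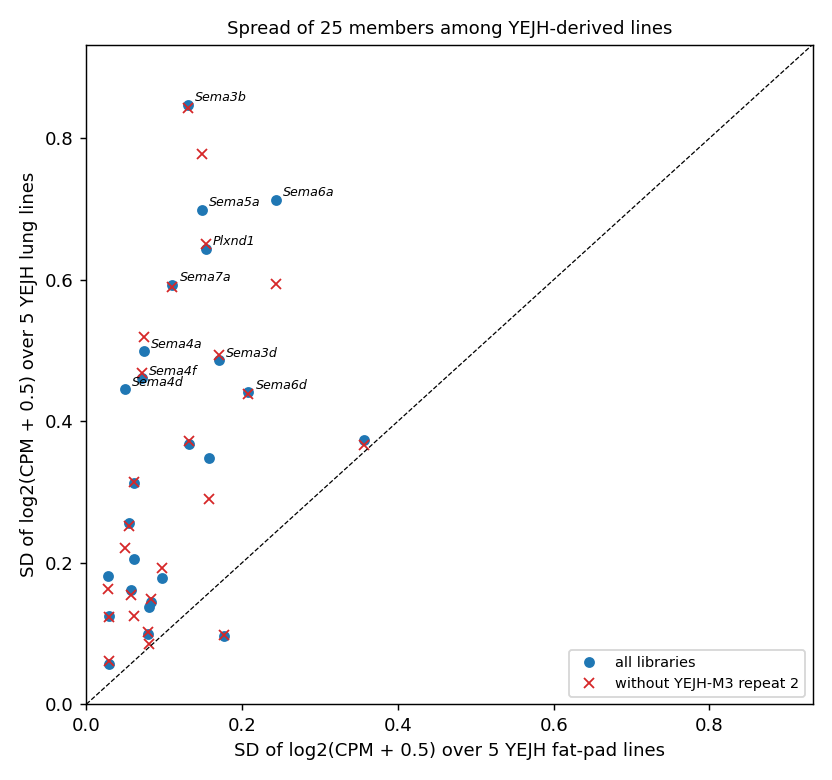
SD of log2(CPM + 0.5) of each of the 25 tested members over the 5 YEJH fat-pad lines (horizontal) and the 5 YEJH lung lines (vertical), with all libraries (circles) and without repeat 2 of YEJH-M3 (crosses). All members other than *Sema6c* lie above the dashed line of equal SD.

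Genes that act with semaphorin receptors were counted beside the members, from a list of 55 co-receptors, proteases and intracellular partners. Between lung and fat-pad lines 0 of 43 tested passed (4 at an unadjusted p under 0.05, edgeR). Between origins 20 of 43 (46.5%) passed, 4 higher and 16 lower in YEJG-derived lines, beside 42.3% of all genes (20.9% higher and 21.4% lower). Those with the smallest p were all lower, namely *L1cam*, a neuropilin-1 partner (log2 fold change -1.55), the small GTPases *Rras2* (-0.45) and *Rras* (-0.62), and the protease gene *Mmp14* (-0.39). In the interaction 11 of 43 (25.6%) passed, 9 of them more positive in YEJG, beside 15.5% of all genes (7.61% more positive and 7.86% more negative). *Sdc3*, a cell surface proteoglycan, was at 7.23 CPM in YEJG-FP, 48.9 CPM in YEJG-M1 and 48.1 CPM in YEJG-M2 (log2 interaction 2.58), and *Flt1*, a VEGF receptor, at 2.31, 55.7 and 16.01 CPM (log2 interaction 4.25). *Sdc3* was at most 5.92 CPM, and *Flt1* at most 5.23 CPM, in the parental and YEJH lines. Between derived and parental lines 6 of 44 (13.6%) passed, 3 in each direction, beside 7.77% of all genes, with *Rras2* (-0.47) and *L1cam* (-1.98) lower and *Fes* (0.94) and *Sh3bp1* (0.95), which both act downstream of plexins, higher in derived lines.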

How the data were processed

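Per the labels, RNA of cultured *PyMT*+ lines was prepared with a TruSeq RNA kit and sequenced on a NextSeq500. The table deposited by the authors holds raw read counts for each gene in 45 libraries, and 0 columns were left over. The submitters' processing notes list FastQC, HISAT2, SAMtools 1.2 and HTSeq, and name GRCh38 as build, although the gene identifiers are of mouse. Of these identifiers 50764 (92.6%) matched the GRCm39 annotation. Rows of unassigned reads held 31.6% to 43.3% of each library's reads and were left out. A read class for low alignment quality held 822828 to 1372504 reads in each of 22 libraries (run A) and 0 reads in the 23 of run B. The library of YEJG-M1 repeat 1 bears another line's name. Its title decided its place, and its run-centred correlation with its mates was at least 0.899, against at most -0.136 with the line it names.

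Counts were summed per line, the unit of replication, and compared in edgeR 4.0.16 under R 4.3.3 by its quasi-likelihood F-test after TMM normalisation and filterByExpr by site, with Benjamini-Hochberg adjustment over all genes tested and a threshold of 0.05. The SE of a log2 fold change is its size divided by the square root of F. Alternatives used DESeq2 1.42.0, limma 3.58.1 with voom, other covariates, library runs and omissions of lines and libraries. Line values are given for members called between sites, in the interaction or against the parental lines, for those called between origins with an absolute log2 fold change of at least 1, and for the 3 smallest p between sites. Floors allow 3 reads over the 3 libraries of a line and cover counting error only. The members and lists were chosen with earlier results of these data known. Figures were drawn with matplotlib 3.10.9.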

Additional observations from a re-analysis of the deposited data

Results flagged for a closer look

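In groups of 5 to 7 lines, 100 combinations of member and group were examined. In 11 of them 1 line was set apart from the rest by a gap that is large for the group's range. Among like lines chance does so in about 1 in 20 groups, or 5. The fat-pad and lung groups mix both origins, so that this figure does not apply to them. The share over all genes was not counted, and 42.3% of all genes tested passed between origins (edgeR). The 11 are therefore not a result about the members. Among the fat-pad lines the line set apart was YEJG-FP, the only one from YEJG, in 8 members. It was the highest for *Sema3e* (32.7 CPM) and *Plxna2* (14.9 CPM) and the lowest for *Sema3b* (0.1002 CPM), *Sema3f* (115 CPM), *Sema4b* (52.1 CPM), *Sema5a* (1.15 CPM), *Sema7a* (3.83 CPM) and *Plxnb1* (53.9 CPM). Among the lung lines, *Sema3a* in YEJG-M2 (46.0 CPM) stood above the next line (7.94 CPM), and *Sema6d* in YEJG-M1 (2.12 CPM) above the next (0.620 CPM). Among the YEJH fat-pad lines, *Plxnb2* in YEJH-FP5 (583 CPM) lay below the next (663 CPM).

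The lung minus fat-pad difference differed between origins, by edgeR's interaction test, for *Sema4b* (0.71 on the log2 scale, YEJG minus YEJH), *Sema4f* (-2.31) and *Sema7a* (2.36). Each rests on the single fat-pad line of YEJG, and causes were not tested.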

How the results depend on the processing

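Between lung and fat-pad lines, where 0 genes and 0 members passed, DESeq2 called 21 genes and 1 member, limma-voom with run as covariate 74 and 1, edgeR with origin as covariate 3 genes, run A alone 1 gene, and YEJH-derived lines alone 7 genes, also 7 without repeat 2 of YEJH-M3. With lines or repeats left out in turn the count of genes lay between 0 and 1 (1 without YEJG-M1). Between origins the 6367 genes and 15 members stayed within 1.5 times under all alternatives run. In the interaction, where 3 members passed, DESeq2 called 8, limma-voom with run as covariate 10 and the fit without repeat 2 of YEJH-M3 5, and 2 to 6 passed with lines or repeats left out in turn. It could not be fitted without YEJG-FP. Between derived and parental lines, where 1272 genes and 2 members passed, DESeq2 called 2027 and 9, limma-voom with run as covariate 2480 and 7, and the fit without an origin term 202 and 0. Run B alone gave 685 genes, YEJH lines alone 566 genes, and the fit without repeat 2 of YEJH-M3 4 members. With lines or repeats left out in turn, 141 (without YEJG) to 2281 genes (without YEJH) and 0 to 6 members passed, with 2149 genes without YEJG-FP and 627 without replicate 1. No named member changed direction in any alternative run, and causes of these shifts were not tested.

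With the technical repeat number as a replicate block in limma-voom, 68 genes and 1 member passed between sites, 10 members in the interaction, and 2546 genes and 9 members against the parental lines, and the calls between origins rose from 15 to 18 members. The number that YEJH fat-pad and lung lines share, used as a block, gave 0 genes and 0 members. Libraries of different lines with the same repeat number had a mean correlation of deviations of 0.24 (from -0.43 to 0.77), against -0.12 for different numbers. Of these 315 pairs with the same number 231 were above 0.1, and 36 of 45 libraries were closest to their own number. The labels tie neither number to a shared batch or animal. Libraries thus shared some structure by repeat number, and its source was not tested. Since some pairs lay below 0.1 and the main tests sum the repeats of a line, the repeat number was not used as pairing there. The number of the YEJH lines was not used either, where the mean was -0.028.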
